A study of Mus musculus with 5 samples.

Results

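*Tbx21*, *Eomes*, *Id2*, *Id3*, *Zeb1*, *Zeb2* and *Bcl6* encode transcriptional regulators of the choice between effector and memory fates in CD8+ T cells, and accessible chromatin at these 7 loci was described in naïve cells, before that choice is made. DNase-seq, which reads out where DNase I can cut chromatin, was available as 1 peak list for WT cells (3 replicates, pooled) and 1 for dKO cells (2 replicates, pooled). dKO cells carried floxed alleles of both *Tcf7*, which encodes Tcf1, and *Lef1*, and are labelled Tcf1-/-Lef1-/-. WT cells are labelled wild type and had unmodified *Tcf7* and *Lef1*. Per the methods, both genotypes were of C57BL/6 background, came from mice 6 to 12 weeks old and carried hCD2-Cre, which acts mainly in mature T cells, and a Rosa26 GFP reporter of Cre activity. Per the labels, the cells were GFP+ TCRbeta+ CD62Lhi CD44lo-med CD8+ splenocytes, so the gate selected cells with Cre activity and a naïve surface phenotype. A peak was assigned to a locus when its summit lay in the gene body or within 50 kb of either end of the gene in the mm9 genome. This rule took 35 of the 31116 WT peaks and 27 of the 25525 dKO peaks.

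T-bet (encoded by *Tbx21*) and Eomes are related T-box activators: T-bet is known for driving effector differentiation after infection, and Eomes for sustaining memory CD8+ T cells and their response to homeostatic cytokines. Id2 and Id3 have no DNA-binding domain and act by capturing E proteins such as E2A, with Id2 linked to short-lived effector cells and Id3 to long-lived memory precursors. Zeb1 and Zeb2 are zinc finger repressors that bind E-boxes, Zeb2 acting with T-bet in terminal effector cells and Zeb1 in memory cells. Bcl6 is a repressor that opposes Blimp1 and is associated with central memory and follicular helper programmes. Tcf1 and Lef1, the factors absent in dKO cells, are HMG-box proteins that recognise the core sequence ATCAAAG.

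Sequences are shown for sites found in 1 list alone, for a pair of *Id3* neighbours with unlike ratios and for the site with the Tcf/Lef string, as 201 bp of the mm9 plus strand centred on the summit. Capitals mark matches on either strand to ATCAAAG (Tcf/Lef), TGTGGTT (Runx), CACCTG (the E-box bound by Zeb factors), AGGTGTG (T-box), CAGGAAG (Ets), TGANTCA (AP-1) and the 12-letter core of the CTCF sequence (CC, then AG after 3 free bases, then GGC after 2 free bases). A match is a string of letters in a window and not evidence of binding. The first pair are the strongest sites found in WT cells alone at *Eomes* and *Tbx21*, and each holds the CTCF core and none of the other strings.
*Eomes*, 11.5 kb downstream of the transcription start site (TSS), chr9:118398859-118399059: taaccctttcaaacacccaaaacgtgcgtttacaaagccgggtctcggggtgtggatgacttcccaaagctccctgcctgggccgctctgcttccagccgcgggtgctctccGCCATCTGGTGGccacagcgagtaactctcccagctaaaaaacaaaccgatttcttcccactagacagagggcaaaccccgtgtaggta
*Tbx21*, 13.4 kb downstream of the TSS, chr11:96963118-96963318: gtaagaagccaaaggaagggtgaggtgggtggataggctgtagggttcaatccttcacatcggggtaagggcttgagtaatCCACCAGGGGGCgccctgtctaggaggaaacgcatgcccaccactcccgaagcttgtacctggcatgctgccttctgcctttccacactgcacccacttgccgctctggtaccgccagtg

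The next is the stronger of the sites found in dKO cells alone, at *Id3*, and it holds the Runx string.
*Id3*, 42.9 kb upstream, chr4:135656389-135656589: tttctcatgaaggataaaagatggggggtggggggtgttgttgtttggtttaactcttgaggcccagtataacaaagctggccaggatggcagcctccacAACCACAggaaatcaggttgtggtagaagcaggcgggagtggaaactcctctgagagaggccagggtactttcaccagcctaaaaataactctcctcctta

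The following pair are neighbouring shared sites of the *Id3* window, both nearer to a TSS of *E2f2*. The one farther from *Id3* ranked lower in dKO cells and the nearer one did not. Both hold the CTCF core, the nearer one together with an Ets string and the farther one together with the E-box.
*Id3*, 16.8 kb downstream, chr4:135716128-135716328: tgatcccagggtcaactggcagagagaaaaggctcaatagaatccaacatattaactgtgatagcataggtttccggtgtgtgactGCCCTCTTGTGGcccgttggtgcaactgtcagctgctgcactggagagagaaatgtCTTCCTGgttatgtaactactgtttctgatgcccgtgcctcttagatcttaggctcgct
*Id3*, 20.2 kb downstream, chr4:135719489-135719689: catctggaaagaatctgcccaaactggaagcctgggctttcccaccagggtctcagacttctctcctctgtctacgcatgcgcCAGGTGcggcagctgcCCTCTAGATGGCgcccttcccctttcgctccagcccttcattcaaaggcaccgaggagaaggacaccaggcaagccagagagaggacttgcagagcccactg

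The last pair are the only site at the 7 loci with the Tcf/Lef string, upstream of *Bcl6*, and the site found in WT cells alone beyond the 3′ end of *Zeb2*, with a pair of Ets strings.
*Bcl6*, 2.5 kb upstream, chr16:23991335-23991535: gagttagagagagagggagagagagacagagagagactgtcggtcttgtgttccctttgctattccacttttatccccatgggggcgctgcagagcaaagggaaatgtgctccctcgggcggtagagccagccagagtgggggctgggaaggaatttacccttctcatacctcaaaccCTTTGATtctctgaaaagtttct
*Zeb2*, 156.7 kb downstream of the TSS, chr2:44816157-44816357: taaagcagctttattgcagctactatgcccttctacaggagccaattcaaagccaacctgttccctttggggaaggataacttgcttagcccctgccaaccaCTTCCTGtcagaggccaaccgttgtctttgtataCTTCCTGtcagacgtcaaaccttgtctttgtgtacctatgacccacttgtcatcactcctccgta

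Most accessible sites of the fate factor loci were found in both genotypes, and the exceptions were spread over the windows of all 7 genes. A peak counted as a ChrAcc site when its pileup reached 4-fold enrichment over the background estimated around it in the same pool, with p under 1e-05 and q under 0.05, which left 30 WT and 24 dKO sites. The 5 WT and 3 dKO peaks outside these criteria lay at *Id2*, *Id3*, *Zeb2* and *Bcl6*. Merging the lists gave 32 sites, of which 22 were shared (overlap of at least 1 bp), 8 were WT-only and 2 were dKO-only. The 8 WT-only sites made up 26.7% of the WT sites (95% Wilson interval 14.2% to 44.4%), against 27.6% of all WT sites. The 2 dKO-only sites made up 8.33% of the dKO sites (2.32% to 25.8%), against 14.4% of all dKO sites. Both background shares lie within those intervals, which cover counting error only. By window, WT and dKO cells held 5 and 4 sites at *Tbx21*, 2 and 1 at *Eomes*, 3 and 2 at *Id2*, 9 and 9 at *Id3*, 5 and 4 at *Zeb1*, 2 and 1 at *Zeb2* and 4 and 3 at *Bcl6*.

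**Figure D1:**
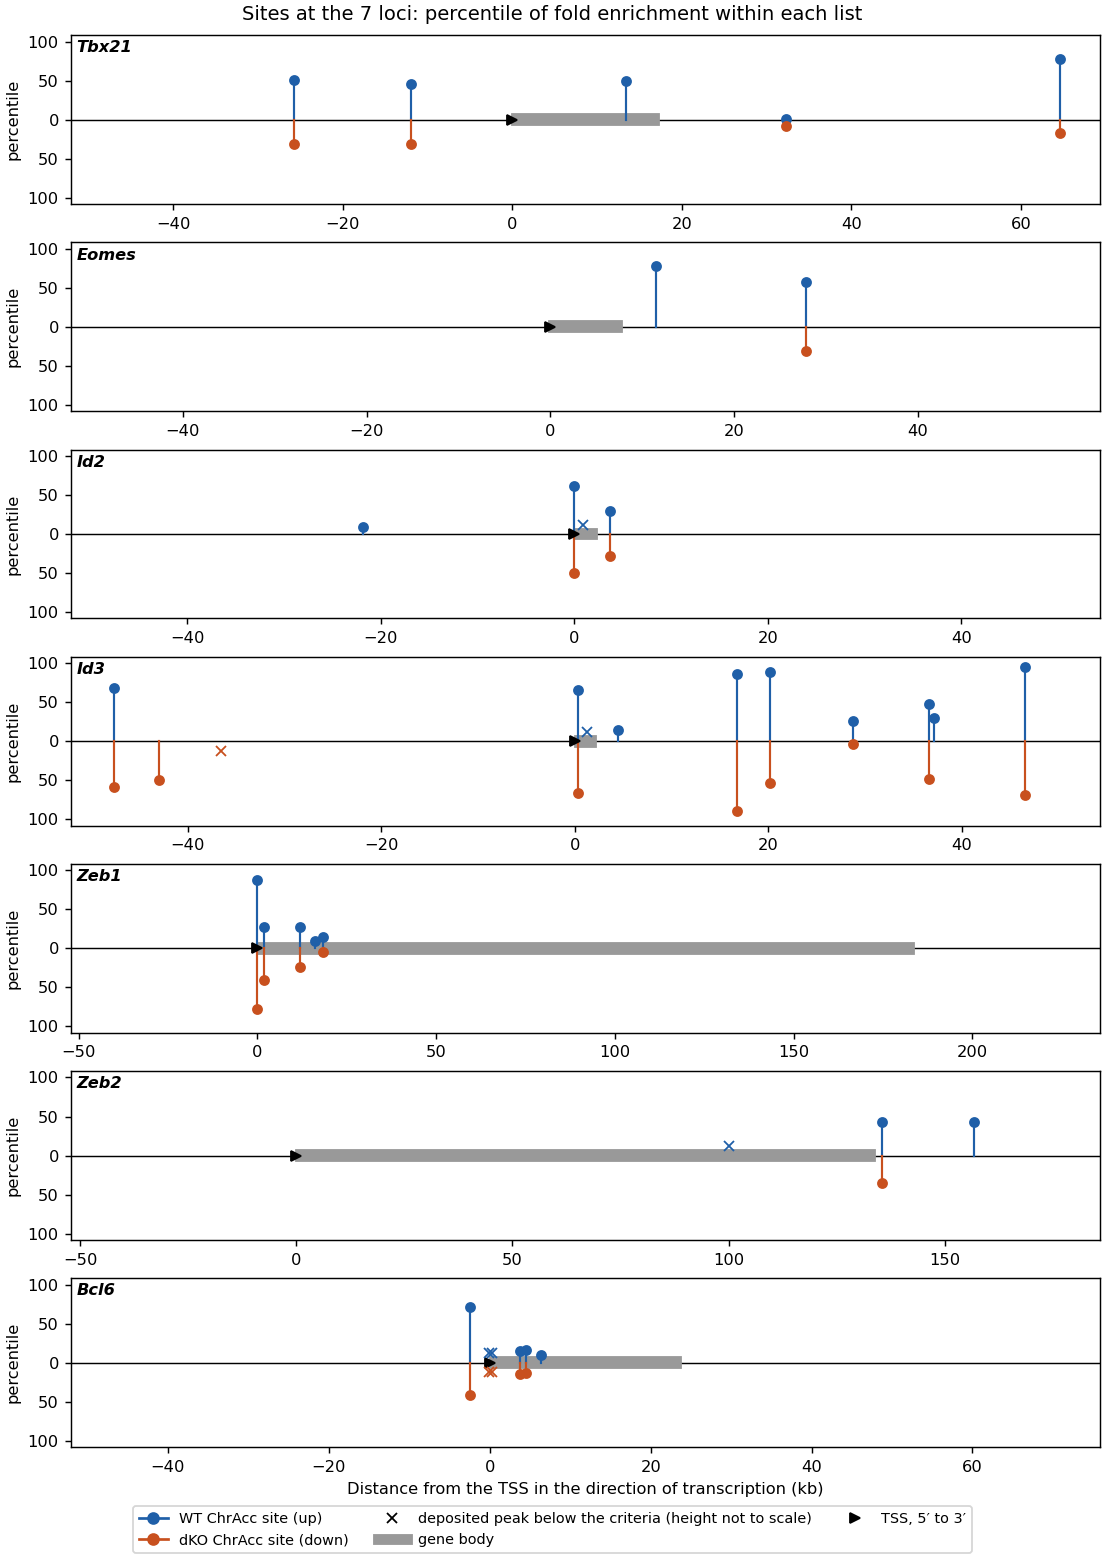
Peaks at the 7 loci by distance of the summit from the TSS in kb, in the direction of transcription, with the percentile of fold enrichment drawn upwards for WT and downwards for dKO sites, crosses for peaks below the criteria and gray bars for gene bodies. 1 dKO-only site of *Id3* is not drawn, and *Eomes* and *Zeb2* hold 2 WT sites and 1 dKO site each.

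Levels were compared through the pileup at the summit, a number of overlapping fragments, divided by the 83923734 WT or 62242963 dKO fragments kept. The log2 ratio of dKO to WT was centred on its median over all 20533 shared sites, which was -0.13. Among the 22 shared sites of the loci, the centred log2 ratio had a median of -0.10 and ran from -1.04 to 0.42, below 0 at 14 sites and above it at 8. Over all shared sites, the 5th and 95th percentiles were -0.59 and 0.68. A single site of the loci was at least 2-fold lower in dKO cells (0.75% of all shared sites) and 0 were at least 2-fold higher (1.51% of all shared sites). The 95% counting interval of the ratio lay wholly below 0 at 2 sites of the loci (5.39% of all shared sites) and wholly above it at 0 (7.56% of all shared sites). Summits of the 2 lists lay a median of 8 bp apart and at most 84 bp apart. Each genotype is 1 pool, so no spread between replicates stands behind these ratios, no p-value between genotypes was computed, and a lower level in all cells cannot be told apart from an open site in fewer cells.

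**Figure D2:**
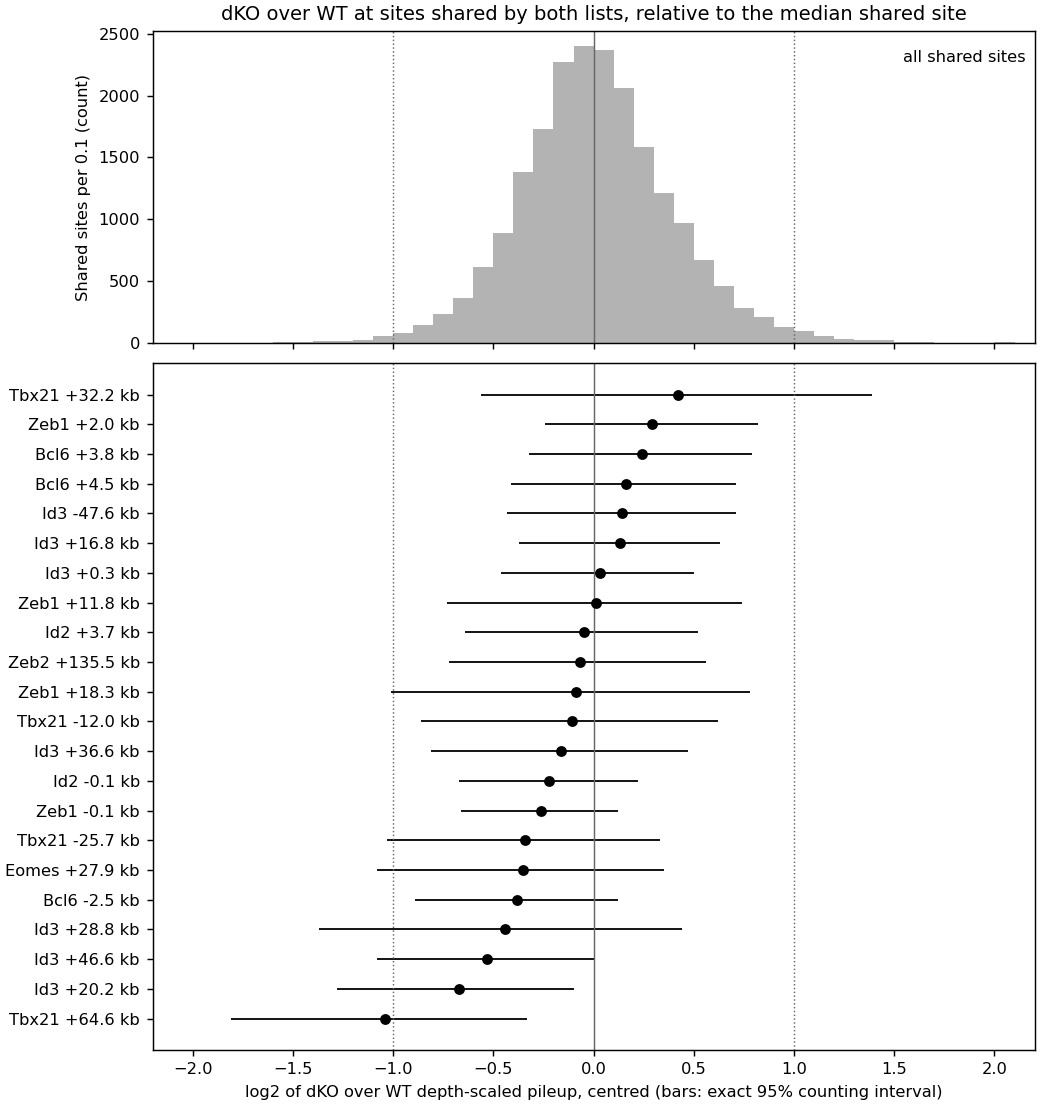
Centred log2 ratio of dKO to WT depth-scaled pileup at the 22 shared sites of the loci with 95% counting intervals, beside its distribution over all 20533 shared sites. The site 64.6 kb downstream of *Tbx21* at -1.04 and the site 20.2 kb downstream of *Id3* at -0.67 are those whose intervals lie wholly below 0.

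*Tbx21* (ENSMUSG00000001444.2, chromosome 11, 96959385 to 96976645, minus strand) had no deposited peak within 1 kb of a TSS in either list, and all of its 5 WT sites lay in the gene body or farther away. The site inside the gene (96963169 to 96963319, summit in intron 2, the peak reaching exon 2) was WT-only, with a summit pileup of 44 fragments and percentile 49.2 of the WT list by fold enrichment. At the dKO depth the same scaled level would be 29.7 fragments, and the lowest pileup of a site in the whole dKO list was 16. The pileup that a site needs rises with its local background, and the part of depth in the missing peak was not tested. Among WT sites of like rank (10 equal parts of the list by fold enrichment), 27.7% were WT-only, so absence from the dKO list was common at this rank. Upstream, the sites at 12 kb and at 25.7 kb, the latter in *Tbkbp1*, were shared and had pileups of 43 and 56 in WT cells and 27 and 30 in dKO cells. Their centred log2 ratios were -0.11 (-0.86 to 0.62) and -0.34 (-1.03 to 0.33), with intervals that include 0.

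The largest shift of the loci lay 64.6 kb downstream of the *Tbx21* TSS, at 96911941 to 96912201 in WT cells and 60 bp from a TSS of the neighbouring gene *Osbpl7*. Its pileup was 67 in WT and 22 in dKO cells, which is 0.798 and 0.353 per 1e+06 fragments. The centred ratio was 2.06-fold lower in dKO cells, a log2 ratio of -1.04 with a counting interval of -1.81 to -0.33, at percentile 0.619 of all shared sites. Its rank was percentile 78.0 in WT and 16.8 in dKO cells. The site is a promoter site of *Osbpl7* that the distance rule also assigns to *Tbx21*. The weakest WT site of all 7 loci, 32.2 kb downstream, had the highest ratio, with pileups of 21 and 19 and a centred log2 ratio of 0.42 (-0.56 to 1.39). Its percentile was 1.19 in the WT list and 8.18 in the dKO list, close to the lower limit of what was called a site.

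*Eomes* (chromosome 9, 118387330 to 118395250, plus strand) likewise had no peak within 1 kb of its TSS in either list and was the locus with the fewest sites beside *Zeb2*. Its strongest site in WT cells lay 3.71 kb beyond the 3′ end of the gene, at 118398804 to 118399025, and the dKO list had no peak there. The summit carried 75 WT fragments, or 0.894 per 1e+06 fragments kept (95% counting interval 0.703 to 1.12), at percentile 78.3 of the WT list. An equal scaled level would be 50.7 fragments in the dKO pool. Of all WT sites of like rank, 9.80% were WT-only, so a site this strong was seldom missing from the dKO list. The *Eomes* site was the highest-ranked of the 8 WT-only sites. The other site of the locus, 27.9 kb downstream and 47 bp from a TSS of *Golga4*, was shared, with pileups of 51 and 27 and a centred log2 ratio of -0.35 (-1.08 to 0.35).

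Unlike the T-box genes, *Id2* and *Id3* had promoter sites in both genotypes. At *Id2* (chromosome 12, 25778666 to 25780957, minus strand) the promoter site, 69 bp from the TSS, held 119 WT and 69 dKO fragments and ranked at percentile 61.2 and 50. Its centred log2 ratio was -0.22 (-0.67 to 0.22). A shared site 3.7 kb downstream of the TSS, past the short gene, had pileups of 66 and 43 and a centred log2 ratio of -0.05 (-0.64 to 0.52). The WT-only site 21.9 kb upstream was weak, with 24 fragments at percentile 8.31, and 64.0% of all WT sites of like rank were WT-only.

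The window of *Id3* (chromosome 4, 135699412 to 135701670, plus strand) held the most sites, with WT-only and dKO-only sites in equal number: 7 were shared, 2 WT-only and 2 dKO-only. It takes in part of the neighbouring gene *E2f2*. The sites 16.8 kb and farther downstream were nearest to a TSS of *E2f2*, and that 47.6 kb upstream to one of *Rpl11*. Nearest to *Id3* itself were the promoter site and those 42.9 kb upstream and 4.5 kb downstream. The promoter site in exon 1 had pileups of 93 and 64, percentiles of 65.7 and 66.1 and a centred log2 ratio of 0.03 (-0.46 to 0.50), so the values of the 2 genotypes nearly coincided. Only the *Id3* locus held dKO-only sites. The stronger, 42.9 kb upstream at 135656433 to 135656644, carried 43 fragments at percentile 50 of the dKO list. An equal scaled level would be 63.6 fragments in the WT pool, where the lowest pileup of a site in the whole list was 21. Of all dKO sites of like rank, 8.58% were dKO-only. The WT-only sites, 4.5 kb and 37.1 kb downstream, carried 45 fragments each, at percentiles 14.8 and 29.1. The latter lay in *E2f2*, 170 bp from an annotated TSS of that gene.

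Downstream of *Id3*, a neighbouring pair of shared sites, both nearer to a TSS of *E2f2* than to one of *Id3*, differed in value. The site at 16.8 kb had pileups of 81 and 60, percentiles of 85.9 and 89.8 and a centred log2 ratio of 0.13 (-0.37 to 0.63). The site at 20.2 kb had pileups of 85 and 36 and percentiles of 88.1 and 53.0. It was 1.60-fold lower in dKO cells after centring, with a log2 ratio of -0.67 (-1.28 to -0.10), at percentile 3.38 of all shared sites. The intervals of this pair of sites overlap between -0.37 and -0.10, and their difference was not tested. The strongest WT site of the 7 loci by rank, 46.6 kb downstream in *E2f2*, ranked at 94.9 in WT and 69.0 in dKO cells, with pileups of 94 and 44 and a log2 ratio of -0.53 (-1.08 to 0.00). The other shared sites, 47.6 kb upstream and 28.8 kb and 36.6 kb downstream at *E2f2*, had centred log2 ratios of 0.14, -0.44 and -0.16.

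**Figure D3:**
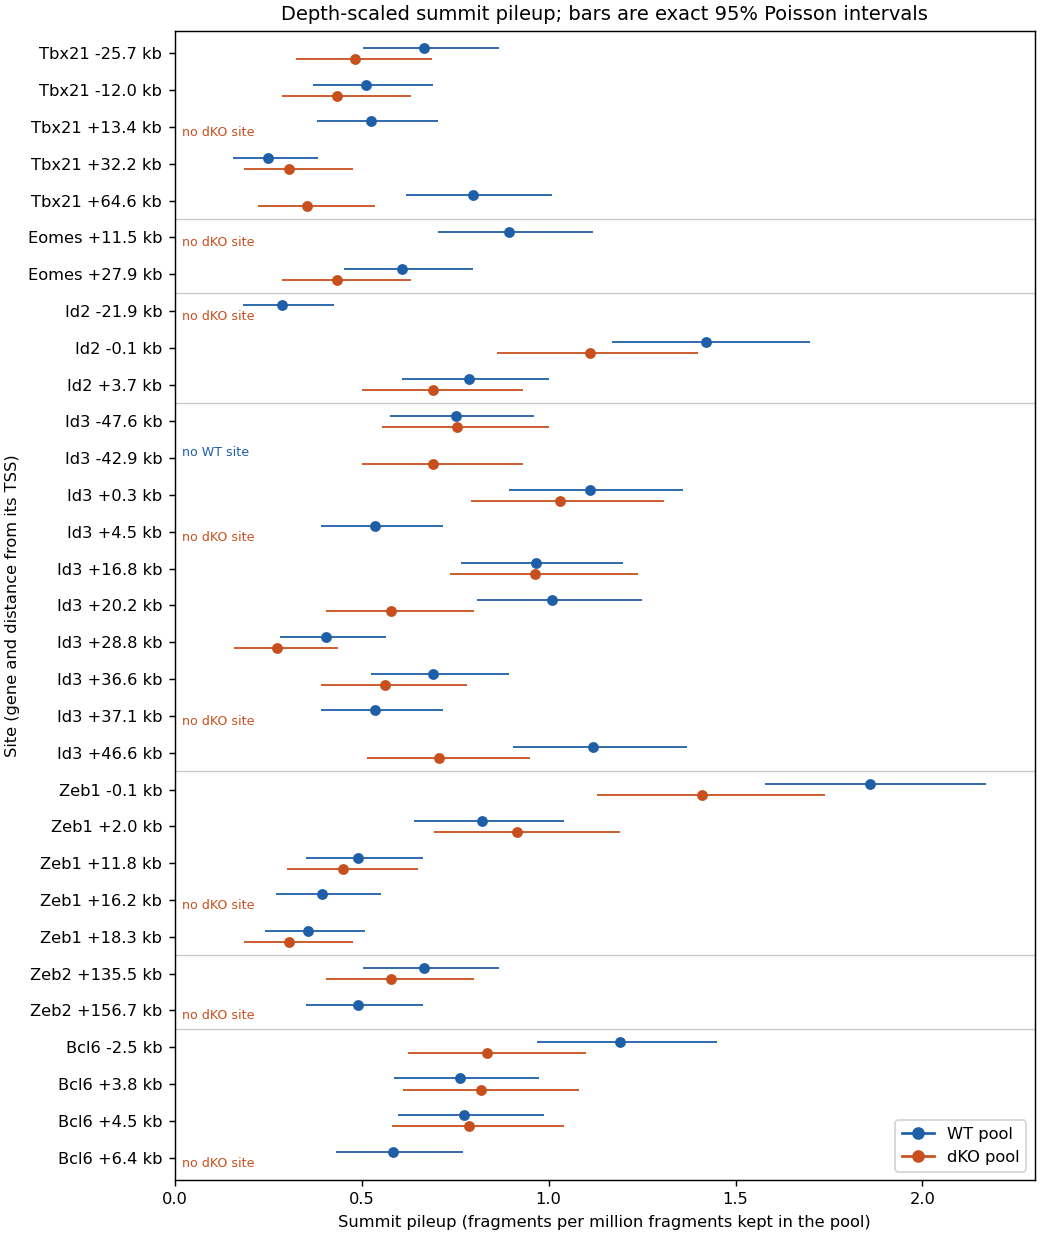
Depth-scaled summit pileup, in fragments per 1e+06 kept, of the ChrAcc sites of the 7 loci, except 1 dKO-only site, in the WT and dKO pools, with 95% counting intervals. The *Zeb1* promoter site is the highest in both pools at 1.86 and 1.41, and the *Eomes* site at 0.894 has a WT value alone.

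The *Zeb* genes differed in where their sites lay. *Zeb1* (chromosome 18, 183.6 kb long) had all of its 5 WT and 4 dKO sites at the promoter or in intron 1, within 18.3 kb of the TSS. Its promoter site, 142 bp upstream, had the highest pileup of the 7 loci, 156 in WT and 88 in dKO cells, at percentiles 88.1 and 77.6, with a centred log2 ratio of -0.26 (-0.66 to 0.12). The shared intronic sites at 2.0 kb and 11.8 kb, which lie near other annotated TSSs of *Zeb1*, had pileups of 69 and 41 in WT and 57 and 28 in dKO cells. The first of them had the second highest ratio among the shared sites of the loci, 0.29 (-0.24 to 0.82), with an interval that includes 0. The site at 18.3 kb had pileups of 30 and 19, and the WT-only site at 16.2 kb had 33 fragments at percentile 8.84.

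*Zeb2* (chromosome 2, 44839154 to 44972915, minus strand, 133.8 kb long) had no peak within 1 kb of a TSS in either list. The ChrAcc sites of its window lay beyond the 3′ end, and all were nearer to a TSS of *Gtdc1* than to one of *Zeb2*. The shared site, 135.5 kb downstream of the TSS at 44837236 to 44837474, had pileups of 56 and 36 and a centred log2 ratio of -0.07 (-0.72 to 0.56). The WT-only site, at 156.7 kb (44816206 to 44816334), carried 41 fragments at percentile 43.0. Another WT peak, in intron 5, had a fold enrichment of 3.53 and was below the criteria.

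*Bcl6* (chromosome 16, 23965138 to 23988938, minus strand) had peaks at its promoter in both lists, but none of them reached 4-fold enrichment. The peak 60 bp upstream of the TSS had pileups of 46 and 28 and fold enrichments of 3.78 and 2.92. The peak in exon 1, 274 bp downstream, had pileups of 37 and 38 and fold enrichments of 3.04 and 3.87. The local background there, recovered from the deposited pileup and fold enrichment, was above the 90th percentile of all deposited peaks, which was 9.46 fragments in WT and 6.67 in dKO cells. The WT promoter peaks ranked at percentiles 40.5 and 27.8 of all deposited WT peaks by pileup, against 95.9 and 96.1 by background. The low fold enrichment at the *Bcl6* promoter in WT cells thus stood beside a high background and pileups below the median.

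**Figure D4:**
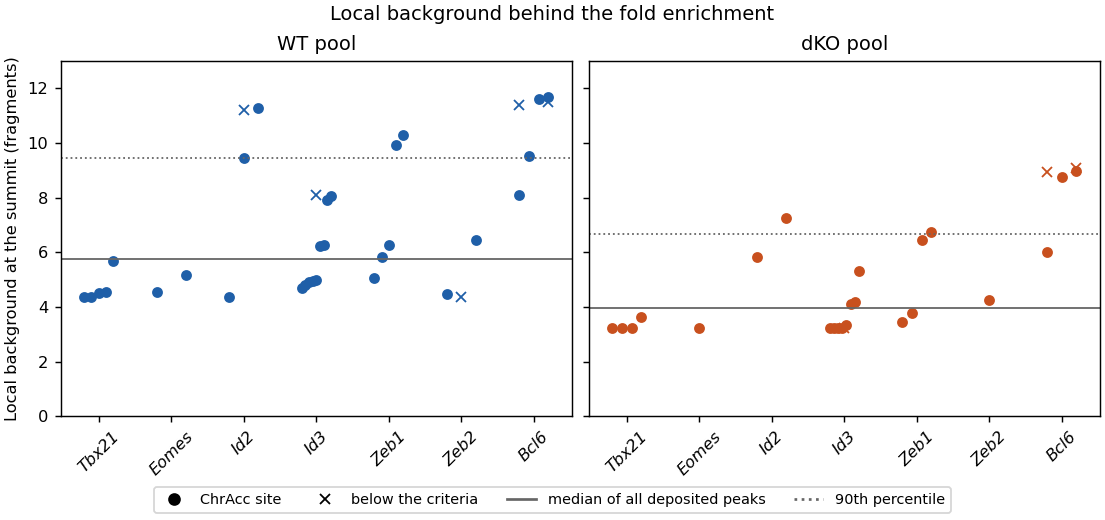
Recovered local background in fragments for the peaks, except 1 dKO-only site, by gene, in the WT and dKO pools, with dots for ChrAcc sites, crosses for peaks below the criteria and lines at the median (5.74 in WT, 3.97 in dKO) and 90th percentile of all deposited peaks. All *Bcl6* promoter peaks and intron 1 sites lie above the 90th percentile, and peaks of *Id2* and *Zeb1* also do.

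In intron 1 of *Bcl6*, the shared sites 3.8 kb and 4.5 kb downstream of the TSS had pileups of 64 and 65 in WT cells and 51 and 49 in dKO cells. Their centred log2 ratios were 0.24 (-0.32 to 0.79) and 0.16 (-0.41 to 0.71). The WT-only site 6.4 kb downstream carried 49 fragments at percentile 9.60 by fold enrichment. Among all deposited WT peaks it ranked at percentile 44.6 by pileup and 90.3 by background. The backgrounds of the intron 1 sites were above the 90th percentile of deposited peaks, like those at the promoter. The strongest site of the locus lay 2.5 kb upstream, at 23991381 to 23991590 in WT cells, with pileups of 100 and 52 and percentiles of 71.0 and 41.4. Ranked by pileup, the difference in percentile was -18.9 in place of -29.6. It is the site with the Tcf/Lef string, on the minus strand at 23991513 to 23991519 and 81 bp from the summit. Its centred log2 ratio was -0.38 (-0.89 to 0.12), an interval that includes 0.

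Among the 32 sites, the Tcf/Lef string was found within 100 bp of the summit at 1 site (3.12%), against 3.65% of all sites of the merged lists. The Zeb E-box and the Ets string were each present at 8 sites, the T-box string at 5 and the AP-1 string at 3, and 14 sites held none of these or the Runx string. The T-box and E-box strings overlapped each other at the *Tbx21* site 25.7 kb upstream, the *Id3* site 47.6 kb upstream and the *Zeb1* promoter. In WT cells the E-box was in 23.3% of the sites of the loci and 16.0% of all sites, the Ets string in 26.7% and 18.2%, the AP-1 string in 10% and 6.09%, and the T-box string in 16.7% and 4.60%. Within 50 bp of the summit these shares were 20.0% and 9.59%, 16.7% and 11.9%, 6.67% and 3.19%, and 6.67% and 2.39%. The shares of the loci rest on 30 sites, and no difference was tested. The Runx string was at 0 of the 30 WT sites, against 9.67% of all WT sites, and at 2 of the 24 dKO sites (8.33%), against 10.6% of all dKO sites. The CTCF core, looked up after the sequences had been seen, was in 8 sites, 6 of them shared. It was in 26.7% of the WT sites of the loci, against 18% of all WT sites and 21.7% of WT sites more than 1 kb from a TSS. Over the whole WT list it was in 19.2% of WT-only and 17.6% of shared sites. The Tcf/Lef string was in 6.98% of all WT-only and 2.61% of all shared WT sites. In the dKO list it was in 2.19% of dKO-only and 2.46% of shared sites. For the Runx string these shares were 10.2% and 9.45% in the WT list and 16.5% and 9.66% in the dKO list.

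Sites within 1 kb of any annotated TSS, of protein-coding genes or others, made up 33.3% of the WT and 37.5% of the dKO sites of the loci. The shares of all sites were 41.3% and 43.3%. Promoter sites of their own were held by 3 of the 7 genes (*Id2*, *Id3* and *Zeb1*) in both genotypes, against 45% of 22238 protein-coding genes in WT and 41.8% in dKO cells. Of the 32 sites, 14 were nearest to the TSS of another gene, and 18 to that of a member, 11 of them shared, 6 WT-only and 1 dKO-only. Of 13 other annotated fate factors (*Prdm1*, *Runx3*, *Irf4*, *Batf*, *Bhlhe40*, *Stat4*, *Klf2*, *Foxo1*, *Tcf3*, *Tcf12*, *Myb*, *Nfil3* and *Ikzf2*), 10 had a promoter site in WT and 9 in dKO cells. Their loci held 92 WT sites, 32 of them WT-only (34.8%, 25.8% to 44.9%), and 70 dKO sites, 10 of them dKO-only (14.3%, 7.95% to 24.3%). Gene by gene, WT-only sites ranged from 0 of 5 at *Prdm1*, which encodes Blimp1, and 0 of 6 at *Tcf3*, which encodes an E protein that Id2 and Id3 capture, to 6 of 9 at *Irf4*, 4 of 6 at *Myb* and 3 of 4 at *Ikzf2*, against 27.6% of all WT sites, and dKO-only sites numbered 0 to 2 per gene. These genes were picked as the ends of the range after their values were seen, and no difference between genes was tested. A shared site can still differ in level, and the authors report a site upstream of *Prdm1* that was less accessible in dKO cells.

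Peaks just inside and outside the rule were as follows. The farthest WT site inside the window of *Id3* lay 47.59 kb from the gene, with a pileup of 63 and a fold enrichment of 10.7, and the nearest WT peak outside lay 50.67 kb away, with a pileup of 34 and a fold enrichment of 6.51. The nearest WT peak outside the window of *Tbx21* lay 56.68 kb from the gene and was stronger, with a pileup of 71 and a fold enrichment of 12.6. By enrichment, the lowest WT site was that 32.2 kb downstream of *Tbx21* at 4.09, and the highest peak left out was the *Bcl6* exon 1 peak in dKO cells at 3.87. As a check on the cells, promoters of 6 of 6 T cell genes (among them *Cd3e* and *Cd8a*) held a ChrAcc site in both lists, those of 0 of 4 B cell genes and 0 of 2 NK cell genes did so in either, and of 4 myeloid genes *Itgam* did so in WT cells. Depth differed 1.35-fold between the pools, and its part in the WT-only sites was not tested.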

How the data were processed

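DNase-seq of naïve CD8+ T cells was analysed in 3 WT and 2 dKO replicates, which the authors pooled by genotype. Per the methods and the submitters' processing notes, reads were checked with FastQC, aligned to mm9 with Bowtie2 2.2.5, and peaks were called by the authors with MACS2 2.1.1 without a control library. Deposited values are the pileup, a signal in fragments at the summit and not scaled to depth, and the fold enrichment. The latter is the authors' ratio of pileup plus 1 to local background plus 1, and the authors' files also give a p-value and a q-value as −log10. The file headers give 167847468 WT and 124485926 dKO fragments read, exactly 2 times the 83923734 and 62242963 kept. Both headers list an unsorted and a coordinate-sorted alignment of the same pool, and the kept number was used as depth.

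The genes and lists were chosen with earlier results of these data known. Peaks were assigned with the gencode annotation of mm9, and no peak lay past a chromosome end. Distances are to the TSS of transcript 001, or of the longest transcript where there was no 001, as at *Id2* (Id2-201). Local background was recovered from pileup and fold enrichment, and it gave back the deposited p-value within 5% at 100% of the sites. Counting intervals are 95%, exact Poisson for levels and Clopper-Pearson for ratios, cover counting error only, and treat the summit, which is a maximum, as a fixed position. Percentiles rank fold enrichment within a list. Described were all promoter sites, the strongest other sites, sites of 1 list alone and the largest shifts of each gene. Of 14 other fate factors, *Zfp683* was not found under that symbol and is not used here. 1 dKO-only site of *Id3* enters the counts but is not reported here individually. Strings were searched on both strands within 100 bp of summits. The overlap step and the 2-fold call on depth-scaled ratios were tested on simulated data, and the intervals were not. Tools were Python 3.11.15, numpy 2.4.6, pandas 2.3.3, scipy 1.17.1, pysam 0.24.0 and matplotlib 3.10.9. Alternatives were other criteria, windows, overlaps, centring and ranks, and read counts per replicate were not analysed here.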

Additional observations from a re-analysis of the deposited data

How the results depend on the processing

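At the 7 loci the main counts were 30 WT, 24 dKO, 8 WT-only and 2 dKO-only sites. A minimum fold enrichment of 8 left 14 WT and 9 dKO sites, of which 6 were WT-only and 1 was dKO-only. No shared site of the loci was then at least 2-fold lower in dKO cells. The site 64.6 kb downstream of *Tbx21* had fold enrichments of 12.3 in WT and 5.45 in dKO cells. Its dKO peak was thus left out, and the site counted as WT-only with its ratio unchanged. With the 20000 peaks of each list that had the highest −log10 p, 5 of 22 WT sites were WT-only and 2 of 19 dKO sites were dKO-only. The gene body alone held 9 WT, 6 dKO, 3 WT-only and 0 dKO-only sites. Windows of 10 kb held 16, 11, 5 and 0, and windows of 100 kb held 54, 47, 13 and 6. Restricting to sites nearest to a member's own TSS left 17 WT, 12 dKO, 6 WT-only and 1 dKO-only. These follow from fewer or more peaks entering. At the minimum of 8 they also follow from sites shared in the main counts that kept only their WT peak. Those were the *Tbx21* sites 64.6 kb downstream and 25.7 kb upstream, the *Eomes* site 27.9 kb downstream and the *Bcl6* site 2.5 kb upstream. Shares over all sites were not computed at these settings, so the counts have no background beside them. With the same sites and a window of 50 bp, no ATCAAAG match remained, a share of 0%. The counts stayed within 1.5 times under q below 1e-10, the peaks as deposited, an overlap of 50% and a gap of up to 100 bp.

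Ranked by pileup, the percentile change from WT to dKO had the opposite sign at the *Id3* site 47.6 kb upstream (0.3), the *Id3* promoter (-2.5), the *Id3* site 36.6 kb downstream (-15.1) and the *Bcl6* site 4.5 kb downstream (1.2). Ranked by −log10 p, it did so at the *Id3* promoter (-2.1) and the *Id3* site 36.6 kb downstream (-8.2). The cause was not tested. No paired analysis was possible because the replicates of each genotype were pooled, and no replicate could be left out. The CTCF core was chosen after seeing the data.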

Other observations

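The windows of the 7 loci span 1071 kb and held 28.0 WT and 22.4 dKO ChrAcc sites per Mb, against 10.7 and 9.18 over the chromosomes of the build. The windows are drawn around genes and the build includes sequence far from any gene, so the densities are not like for like. A density over windows of other genes was not computed. The median percentile of fold enrichment of the sites was 44.3 in WT and 33.2 in dKO cells. Between the lists, 16 of the 22 shared sites had a lower percentile in dKO cells and 6 a higher one, where 58.7% of all shared sites had a lower one.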
